A study of Mus musculus with 11 samples.

Results

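A genotype difference that depends on the culture medium was measured gene by gene in mouse embryonic stem cells (ESCs). The quantity is the interaction, that is, the mutant minus control difference after 3 days in N2B27 less the same difference in ESC medium. All 11 arrays and all 19935 genes entered a single fit, and 422 genes (2.12%) were called, at an adjusted p under 0.05. A positive interaction means that the mutant stood higher, relative to control, in N2B27 than in ESC medium. It was found for 312 genes (1.57%), and the opposite for 110 genes (0.552%).

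The arrays are Affymetrix whole-transcript arrays of total RNA and form 4 groups. Control is the wild type line E14, with 3 arrays in ESC medium and 3 after 3 days in N2B27. Mutant stands for Bmpr1a-/- cells, with 2 arrays in ESC medium (numbered 2 and 3) and 3 after 3 days in N2B27. The mutant lines are C1-6, Fr124 and Fr88, with no statement of the line behind each array. Mutant sample 1 in ESC medium is not analysed here. The sources used here state neither the deleted stretch of Bmpr1a nor whether samples were cultured separately. The p-values therefore reflect variation among these samples only, some or all of which may be technical. Every comparison of genotypes also compares E14 with other lines, and the effect of genotype and of line cannot be told apart.

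Bmpr1a is a type I receptor of the BMP (bone morphogenetic protein) ligands, which signal through SMAD transcription factors to targets such as the Id genes. In mouse ESCs, BMP signals help to hold back neural differentiation. N2B27 contains no serum and lets ESCs differentiate, commonly along a neural route. Values are log2 and centred gene by gene on a baseline that is not stated, so a value compares arrays for 1 gene and never 1 gene with another. A log2 difference of 1 is a doubling, and SE is the moderated standard error of the fit.

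Bmpr1a read 0.37, 0.16 and 0.25 in control arrays and -0.03 and 0.00 in mutant arrays of ESC medium. After N2B27 its values were 0.61, 0.68 and 0.76 in control and 0.15, -0.14 and -0.05 in mutant arrays. Mutant arrays lay below control arrays in both media. The genotype difference was -0.27 in ESC medium (adjusted p = 0.145, not called) and -0.70 in N2B27 (adjusted p = 0.00211). The interaction was -0.42 (SE 0.13, adjusted p = 0.146) and was not called. It passed with array weights (adjusted p = 0.0085) and with only the arrays numbered 2 and 3 (adjusted p = 0.0322). The mean of 6 ESC markers was 0.97 to 1.18 in control and 1.35 and 1.37 in mutant arrays in ESC medium. In N2B27 it was -1.02 to -0.81 in control and -0.41 to -0.30 in mutant arrays. All arrays labelled ESC medium lay above all others, and mutant arrays lay above control arrays in both media. None of the 6 markers was called in the interaction, and the part of this marker difference in the results below was not tested. Centred values do not give the absolute level of a marker. The root mean square deviation of an array from its group mean ran from 0.0774 to 0.185, with the highest value for mutant array 2 in N2B27. Over all genes the median interaction was 0.01.

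Small RNA genes of an imprinted region on chromosome 12 were among the genes with a positive interaction, and the mature miRNAs of 4 of them are shown because the region is described in depth later. They are the 3 called miRNA genes with the largest interaction and the one with the lowest adjusted p, and they were chosen after their values were seen. Capitals mark the seed, bases 2 to 8, through which a miRNA pairs with its targets. The sequences are from RefSeq, build GRCm38.p6.
mmu-miR-377-5p: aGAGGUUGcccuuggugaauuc
mmu-miR-377-3p: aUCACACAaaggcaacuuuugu
mmu-miR-382-5p: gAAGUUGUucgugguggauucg
mmu-miR-382-3p: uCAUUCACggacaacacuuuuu
mmu-miR-679-5p: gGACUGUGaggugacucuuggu
mmu-miR-679-3p: aGCAAGGUccuccucacaguag
mmu-miR-127-5p: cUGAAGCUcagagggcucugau
mmu-miR-127-3p: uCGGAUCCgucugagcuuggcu

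The called genes took a few shapes across the 4 group means. Among the 312 genes with a positive interaction, 280 had a lower mutant mean in ESC medium and 270 a higher mutant mean in N2B27. Their median genotype difference was -0.49 in ESC medium and 0.38 in N2B27, against -0.01 and 0.00 over all genes. Their median response to N2B27 was -0.12 in control and 0.81 in mutant cells. Among the 110 genes with a negative interaction, the median genotype difference was 0.71 in ESC medium and 0.00 in N2B27. Their median response was -0.02 in control and -0.69 in mutant cells. Both genotype differences are parts of the interaction, so these values describe its shape and do not test it again.

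**Figure D1:**
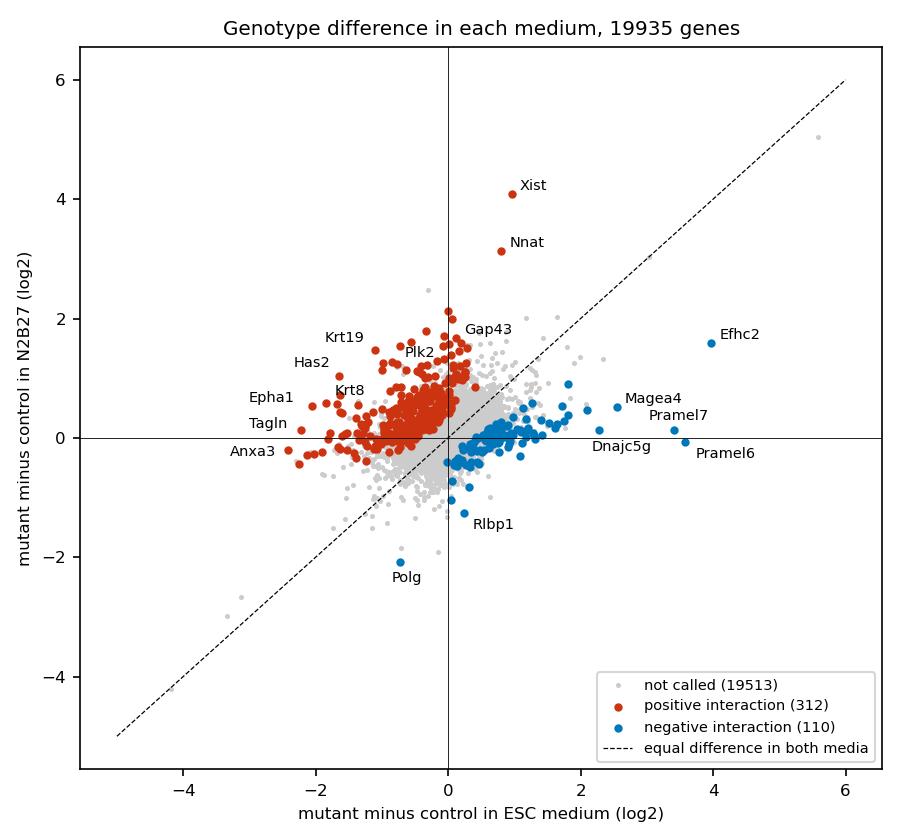
Each point is a gene, with the mutant minus control difference in ESC medium on the x axis and in N2B27 on the y axis, both log2. The 312 genes with a positive interaction (red) lie above the line of equal difference and the 110 with a negative interaction (blue) below it, with Pramel6 and Pramel7 far to the right near 0 on the y axis.

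The simple differences were called for most of these genes. Of the 312, the genotype difference was called in ESC medium for 169 (6.14% of all genes) and in N2B27 for 149 (5.74% of all genes), with 24 called in both media and 18 in neither. Of the 110, it was called in ESC medium for 91 and in N2B27 for 26. In control cells 64 of the 312 rose in N2B27 (12.8% of all genes) and 108 fell (13.3%), while in mutant cells 251 rose (14.9%) and 8 fell (10.3%). Of the 110, 28 rose and 25 fell in control cells, while 3 rose and 86 fell in mutant cells. N2B27 changed 26.1% of all genes in control and 25.2% in mutant cells. These counts rest on the arrays that chose the genes.

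With 0.5 log2 as the size that counts as a difference, the mutant differed from control in ESC medium alone for 124 of the 312 genes and in N2B27 alone for 81. In both media, and in opposite directions, it differed for 31, in the same direction for 2, and in neither medium for 74. The split depends on the size chosen: at 0.3 log2, 91 differed in opposite directions and 10 in neither medium, and at 1.0 log2 these were 2 and 223. Of the 110 genes with a negative interaction, 70 differed in ESC medium alone, 4 in N2B27 alone, 6 in both in the same direction and 30 in neither, with 2 in neither at 0.3 log2 and 78 at 1.0 log2. The genotype difference itself was called in both media with opposite signs for 20 genes with a positive and 3 with a negative interaction.

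A group was said to stand apart where its mean lay farther from the nearest other mean than the range of the other 3 means. Among genes with a negative interaction, mutant cells in ESC medium stood apart and high for 77 of 110 (70.0%), against 7.78% of all genes. Among those with a positive interaction they stood apart and low for 97 of 312 (31.1%), against 9.01% of all genes. Mutant cells in N2B27 stood apart and high for 59 of these 312 (18.9%, against 5.45% of all genes). Control cells in N2B27 stood low for 34 (10.9%, against 5.15%) and control cells in ESC medium high for 21 (6.73%, against 3.89%). No group stood apart for the other 101 (32.4%, against 53.4%). The sign of the interaction fixes on which side each group can lie. Mutant cells in ESC medium, the group with 2 arrays, stood apart for 41.2% of all called genes, and this share ran from 34.0% to 52.5% when 1 array at a time was left out.

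**Figure D2:**
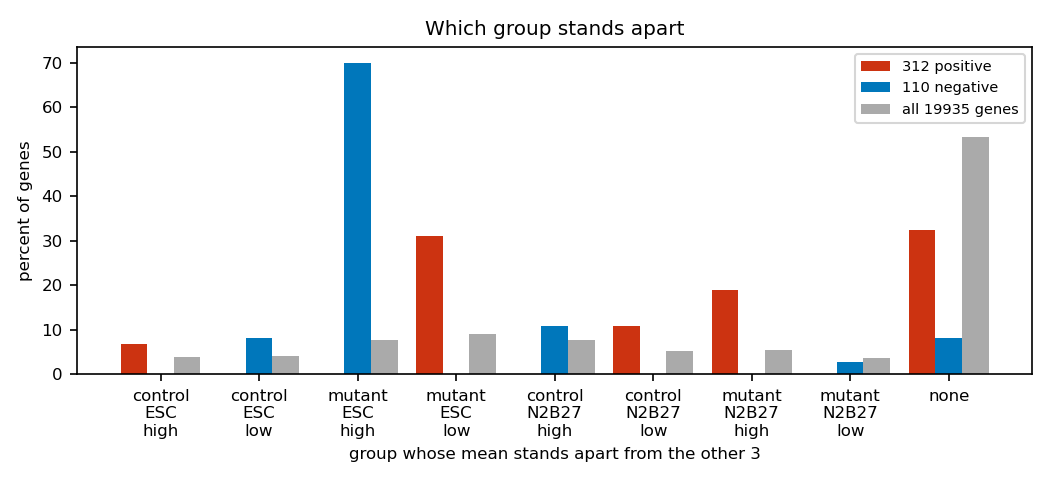
Bars give the percent of genes for which the group on the x axis stands apart from the other 3, for positive and negative interactions and for all genes. The tallest bar is mutant cells in ESC medium standing high among genes with a negative interaction, at 70.0%.

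The number of calls depended on single arrays. All 422 genes kept their sign in the alternative settings that tested them, which their choice by size on these same arrays largely fixes, so this is no sign of stability. The count fell to 59 without mutant ESC array 2, all 59 among the 422, and to 162 without mutant ESC array 3. It was 171 without control ESC array 2, 183 without control ESC array 3, 199 without control N2B27 array 2 and 196 without control N2B27 array 3. Without mutant N2B27 array 2 it was 633.

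Some genes of simple epithelia were called with a positive interaction. Of 30 measured genes of keratins and cell junctions, 7 were called positive and none negative, which is 23.3% against 1.57% of all genes. This and the other gene lists were chosen with earlier results of these data known. Their shares against all genes therefore describe the lists and are no test of them. The median interaction of the list was 0.55, from a median genotype difference of -0.45 in ESC medium and 0.03 in N2B27. Krt8, a keratin of simple epithelia, read 0.13, 0.36 and 0.26 in control arrays and -1.57 and -1.62 in mutant arrays of ESC medium. In N2B27 the control arrays read -0.26, -0.37 and -0.07 and the mutant arrays 0.41, 0.16 and 0.46. The mutant arrays were thus lowest of all in ESC medium and above every control array in N2B27. Its interaction was 2.43 (SE 0.15, adjusted p = 7.99e-05), with genotype differences of -1.85 and 0.58.

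Krt18, the usual partner of Krt8 in keratin filaments, had an interaction of 1.83 (SE 0.34, adjusted p = 0.0241). It read -0.06 to 0.26 in control and -2.05 and -2.0 in mutant arrays in ESC medium, while in N2B27 the genotypes overlapped. Krt19, another keratin of this kind, had an interaction of 2.58 (SE 0.41, adjusted p = 0.0143). In N2B27 it read -0.97 to -0.74 in control and 0.20 to 1.00 in mutant arrays, with no overlap. Cldn6, a tight junction claudin, had 1.87 (SE 0.29, adjusted p = 0.0141), and the desmosome gene Perp, a p53 target, had 1.28 (SE 0.13, adjusted p = 0.00242). The protease gene St14 and the epithelial transcription factor gene Grhl2 had 0.96 and 0.65. The list had 4 calls without control ESC array 2, control N2B27 array 2 or mutant ESC array 3, and 3 without mutant ESC array 2. Krt8, Cldn6 and Perp passed without any single array, while Krt19 did not pass without mutant ESC array 2 (adjusted p = 0.0862).

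Contractile and actin fibre genes, many of them targets of the serum response factor SRF, had the highest share of calls of any list. This list too was chosen with earlier results known. Of 22 measured, 9 were called positive and none negative (40.9%, against 1.57% of all genes). In ESC medium 13 of them were lower in mutant cells (3.05% of all genes were). The list's median interaction was 1.04, from -0.98 in ESC medium and 0.03 in N2B27, and its median response to N2B27 was 0.51 in control and 1.59 in mutant cells. Zyx, encoding the focal adhesion protein zyxin, read -0.44, -0.01 and -0.15 in control arrays and -1.31 and -1.50 in mutant arrays of ESC medium. After N2B27 control arrays gave 0.21, 0.06 and 0.00 and mutant arrays 0.34, 0.45 and 0.28. Both mutant arrays in ESC medium lay below the other 9 arrays. The interaction was 1.47 (SE 0.17, adjusted p = 0.00348).

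Tagln, encoding the actin-binding protein transgelin, read -0.15, 0.23 and 0.07 in control arrays and -2.32 and -2.03 in mutant arrays of ESC medium. In N2B27 the genotypes overlapped, at 0.65, 0.00 and 0.25 in control and 1.10, -0.42 and 0.59 in mutant arrays. Its interaction was 2.35 (SE 0.48, adjusted p = 0.0371). Cald1 (caldesmon) had 1.66 and Cnn2 (a calponin) 1.61. Tpm1, Tpm4 (on chromosome 8) and Tpm2 (tropomyosins) had 1.45, 1.14 and 0.93, Vcl (vinculin) 1.2 and X-linked Flna (filamin A) 0.60. Acta2 and Myl9, of smooth muscle fibres, had 1.25 (adjusted p = 0.346) and 1.55 (adjusted p = 0.123) and were not called. Both were chosen after their values were seen, and Myl9 passed without mutant N2B27 array 2 (adjusted p = 0.0308). Of the 9 calls, that of Zyx held without any single array. The count was 1 without control ESC array 3, control N2B27 array 2 or 3 or mutant ESC array 2, and 2 without control ESC array 2 or mutant ESC array 3. It was 5, 14 and 3 without mutant N2B27 arrays 1, 2 and 3.

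Tagln is also a marker of fibroblasts, which can be present as feeder cells. Of 19 fibroblast and feeder genes, Tagln and Col1a1 were called positive (10.5%, against 1.57% of all genes) and the list median was 0.00. The mean of 10 defining fibroblast markers was 0.03 to 0.16 in control and -0.17 and -0.13 in mutant arrays in ESC medium. In N2B27 it was 0.15 to 0.33 in control and -0.02 to 0.20 in mutant arrays. The part of these cells in the contractile result was not tested.

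SRF binds a motif called the CArG box. It was searched on both strands, being its own reverse complement, in windows from 250 bases before to 50 bases after each gene start. The window of 6 of 20 contractile genes holds one (30.0%), against 1.81% of 27025 genes with a window. The list was drawn up around SRF targets, so this excess follows from its choice and says nothing about the interaction. Of the 8 called genes with a window, Cnn2 and Vcl hold one (25.0%). These windows are shown because they belong to called members of the list, with the box in capitals, from RefSeq build GRCm38.p6 on the plus strand. A match describes the letters and does not show binding.
Cnn2, chr10:79988350-79988649: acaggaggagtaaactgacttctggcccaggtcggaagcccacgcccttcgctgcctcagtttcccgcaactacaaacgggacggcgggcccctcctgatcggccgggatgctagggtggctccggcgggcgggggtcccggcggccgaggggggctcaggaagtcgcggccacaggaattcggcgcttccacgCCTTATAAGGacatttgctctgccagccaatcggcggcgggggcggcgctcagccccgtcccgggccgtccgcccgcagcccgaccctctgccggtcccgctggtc
Vcl, chr14:20929148-20929447: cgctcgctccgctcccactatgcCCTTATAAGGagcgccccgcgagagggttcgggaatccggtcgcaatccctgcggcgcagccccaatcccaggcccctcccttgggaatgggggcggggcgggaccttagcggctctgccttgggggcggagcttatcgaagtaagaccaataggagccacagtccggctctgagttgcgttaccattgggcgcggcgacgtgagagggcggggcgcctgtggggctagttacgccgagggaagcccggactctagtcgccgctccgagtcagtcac

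**Figure D3:**
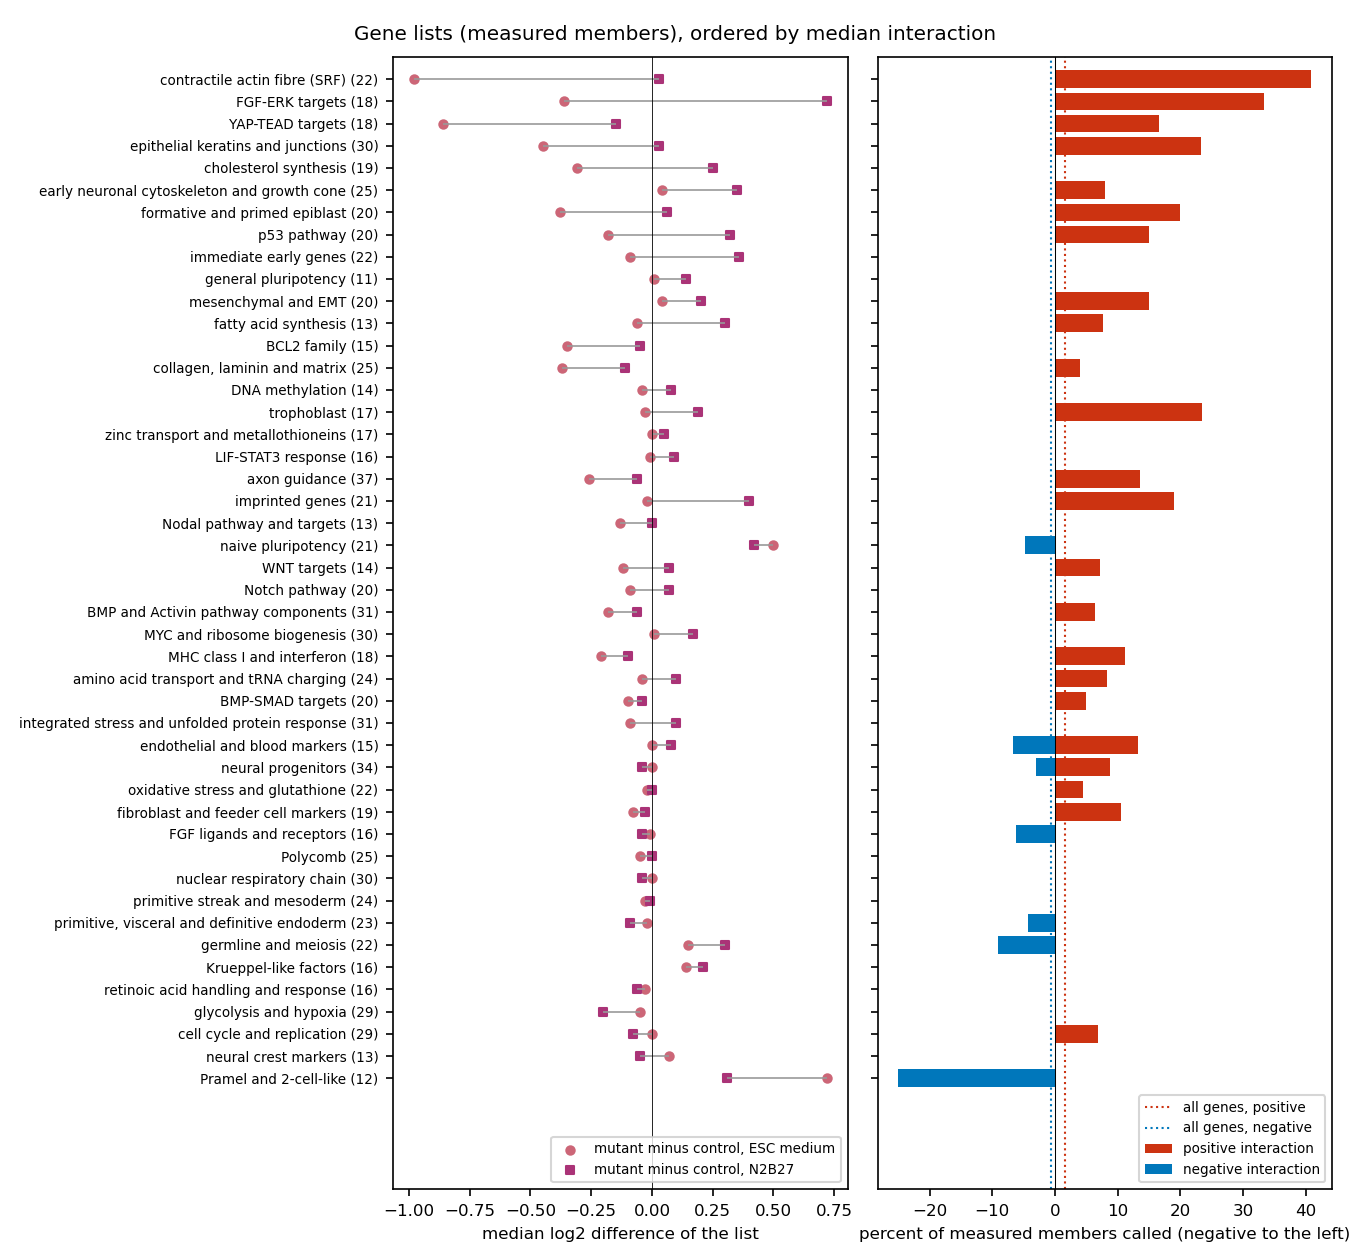
On the left, the median genotype difference (log2) of each list in ESC medium (circles) and in N2B27 (squares). On the right, the percent of its measured members called, positive to the right and negative to the left, with dotted lines for all genes. The contractile list has the highest share of positive calls, at 40.9%.

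Feedback targets of FGF-ERK signalling, a pathway that drives ESCs out of pluripotency, also held calls. Of 18 measured, 6 were called positive and none negative (33.3%, against 1.57% of all genes). All 18 had a positive value, against 52% of all genes. The list's median interaction was 0.73, from -0.36 in ESC medium and 0.72 in N2B27. The median response to N2B27 was -0.72 in control and 0.08 in mutant cells. Dusp6, a phosphatase gene that acts on ERK, read -0.27, 0.00 and -0.05 in control arrays and -1.16 and -0.80 in mutant arrays of ESC medium. The N2B27 values were 0.11, -0.34 and -0.27 for control and 0.99, 0.39 and 0.47 for mutant arrays. Genotypes did not overlap in either medium and their order turned between them. The interaction was 1.66 (SE 0.27, adjusted p = 0.0145), with -0.88 (adjusted p = 0.0281) in ESC medium and 0.78 (adjusted p = 0.0312) in N2B27.

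Spry2, a feedback inhibitor of receptor signalling, had an interaction of 1.61 (SE 0.25, adjusted p = 0.0143). It read 0.37 to 0.64 in control and 0.00 and 0.23 in mutant arrays in ESC medium, and -1.50 to -1.43 in control and -0.72 to 0.07 in mutant arrays in N2B27. Here it was the fall in control cells that was large, at -1.98, against -0.37 in mutant cells. Dusp4, another phosphatase gene, on chromosome 8, had 2.14 (SE 0.46, adjusted p = 0.0457). Phlda1 had 1.64, and the ERK inhibitor genes Spred1 and Spred2 had 0.76 and 0.64. Etv4 and Etv5, transcription factor genes of the pathway, had 1.11 (adjusted p = 0.0985) and 0.84 (adjusted p = 0.101) and were not called. Both were chosen after their values were seen, and Etv4 passed without mutant N2B27 array 2 (adjusted p = 0.0461) and Etv5 without mutant N2B27 array 3 (adjusted p = 0.0252). The list had 1 call without mutant ESC array 2 and 2 without mutant ESC array 3. Dusp6 did not pass without mutant ESC array 2 (adjusted p = 0.0943), nor Spry2 without either mutant ESC array (up to 0.0676), nor Dusp4 without any of 8 arrays (up to 0.22).

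Of 20 measured BMP-SMAD targets, 1 was called, positive (5.0%, against 1.57% of all genes), and the list's median interaction was 0.08. That gene was Id2, an inhibitor of differentiation. It read 0.90, 1.51 and 1.46 in control arrays and -0.46 and -0.59 in mutant arrays of ESC medium. Control arrays from N2B27 stood at -1.13, -0.76 and -0.93 and mutant arrays at -0.89, -0.44 and -1.57. Control cells in ESC medium stood apart from the other groups. The interaction was 1.79 (SE 0.38, adjusted p = 0.0447) and passed only without control ESC array 1 or mutant N2B27 array 2 or 3 when 1 array was left out, with adjusted p up to 0.165. Id1 and Id3, of the same family, had 0.26 (adjusted p = 0.628) and 0.56 (adjusted p = 0.417), and the inhibitory SMAD genes Smad6 and Smad7 -0.03 and 0.41, none called. Of 31 BMP and Activin pathway components, 2 were called positive and none negative (6.45%, against 1.57% of all genes). They were the ligand gene Bmp8b (1.32, adjusted p = 0.00904) and Fstl1, encoding a follistatin-like protein (0.85, adjusted p = 0.0322). Both calls were lost without mutant ESC array 2 (adjusted p = 0.0631 and 0.162), and that of Fstl1 without any of 7 arrays.

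Pluripotency genes gave 1 call, where 2.12% of all genes were called. Of 21 naive genes 1 was called, negative (0.552% of all genes were), and of 11 general pluripotency genes none was. Counts this small do not set these lists apart. The naive list had a median genotype difference of 0.50 in ESC medium and 0.42 in N2B27, and a median interaction of 0.14. Zfp42 and Esrrb had 0.90 (adjusted p = 0.175) and 1.00 (adjusted p = 0.144), Klf4 and Nanog -0.43 and -0.72, and Pou5f1 and Sox2 0.38 and -0.04, none called, though Klf4 passed without control ESC array 1 (adjusted p = 0.0177). The called naive gene was Spic, a transcription factor gene. It read 0.01 to 0.19 in control and 1.34 and 1.26 in mutant arrays in ESC medium, and -0.10 to 0.07 in all 6 arrays in N2B27. Its interaction was -1.17 (SE 0.11, adjusted p = 0.00109), and it passed without any single array. Of 20 formative and primed epiblast genes, Cldn6, Dusp6, Grhl2 and Pou3f1 were called positive (1.57% of all genes were) and none negative. Cldn6 and Grhl2 are also calls of the keratin and junction list and Dusp6 of the FGF-ERK list, so these calls are not separate evidence. Cldn6 passed without any single array, Dusp6 did not pass without mutant ESC array 2 (adjusted p = 0.0943), and Grhl2 was lost without any of 4 arrays (up to 0.119) and Pou3f1 without any of 8 (up to 0.211). Otx2, Fgf5 and Dnmt3b had -0.60, 0.14 and 0.39 and were not called.

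Neural genes gave 3 positive calls (8.82%, against 1.57% of all genes) and 1 negative among 34 progenitor genes, with a list median of 0.02. The mean of 4 neural markers (Sox1, Pax6, Nes and Tubb3) was -0.64 to -0.11 in control and 0.40 to 0.43 in mutant arrays in N2B27, and -0.25 to 0.04 in the 5 arrays in ESC medium. The mutant arrays in N2B27 lay above all others, and 1 of the 4 markers, Nes, was called. Nes, the intermediate filament gene of neural progenitors, read -0.98, 0.23 and 0.06 in control arrays and -1.34 and -0.81 in mutant arrays of ESC medium. In N2B27 the control arrays read -0.38, -0.06 and -0.33 and the mutant arrays 1.10, 0.71 and 1.22. The genotypes overlapped in ESC medium and not in N2B27. The interaction was 2.11 (SE 0.43, adjusted p = 0.0367). Neurod1, a proneural transcription factor gene, had 2.23 (SE 0.41, adjusted p = 0.0233), Sox11 1.09 and the nuclear receptor gene Nr2f2 -1.14 (SE 0.17, adjusted p = 0.0104). Sox1 and Pax6, early neural transcription factor genes, had -0.35 and -0.18 and were not called. When 1 array was left out, Nes passed only without control ESC array 1 or mutant N2B27 array 2, with adjusted p up to 0.186, and Neurod1 was lost without 6 of the 11 arrays, up to 0.123.

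A few genes of growing axons and their guidance were also called. Gap43, of the growth cone, read -0.30, 0.11 and -0.03 in control arrays and 0.03 and 0.05 in mutant arrays of ESC medium, and -1.30, -1.03 and -1.55 in control and 0.56, 0.23 and 0.35 in mutant arrays in N2B27. Control cells in N2B27 stood apart and low. The interaction was 1.56 (SE 0.21, adjusted p = 0.00843), and 0.77 (adjusted p = 0.0222) for Map1b, a microtubule protein gene. Of 37 axon guidance genes, 5 were called positive and none negative (13.5%, against 1.57% of all genes), with a list median of 0.17. They were the ephrin receptor genes Epha1 (2.60) and Epha2 (1.60), the ephrin gene Efnb1 (0.74), the semaphorin gene Sema6a (2.24) and the netrin receptor gene Unc5b (1.05). Epha1 passed without any single array. The count was 3 without control ESC array 2 or 3, control N2B27 array 2 or 3 or mutant ESC array 3, and 1 without mutant ESC array 2. Gap43 did not pass without mutant ESC array 2 (adjusted p = 0.0571).

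**Figure D4:**
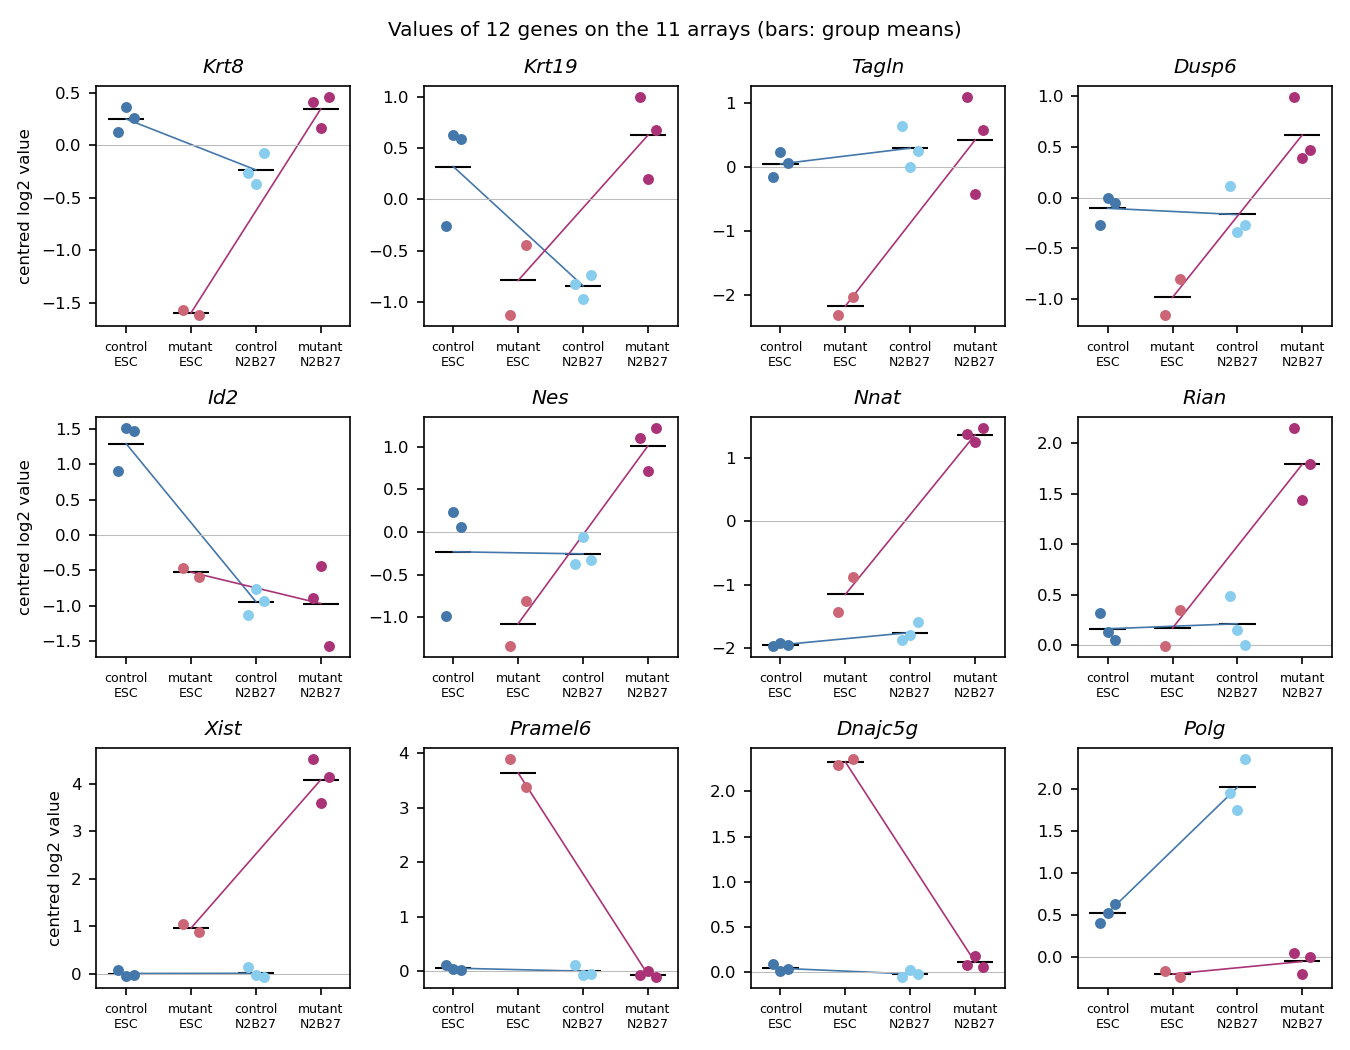
Centred log2 values of 12 genes on the 11 arrays by group, with bars for group means and lines joining the media within a genotype. Krt8, Tagln and Dusp6 are low in mutant cells in ESC medium, Nnat, Rian and Xist are high in mutant cells in N2B27, and Pramel6 and Dnajc5g are high in mutant cells in ESC medium.

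A few imprinted genes, which are expressed from 1 parental copy, were called. Of 21 measured, 4 were called positive (1.57% of all genes were) and none negative, with a list median of 0.15. Nnat (neuronatin) read -1.98, -1.93 and -1.96 in control arrays and -1.43 and -0.88 in mutant arrays of ESC medium. After N2B27 control arrays gave -1.88, -1.80 and -1.60 and mutant arrays 1.38, 1.25 and 1.48. Mutant arrays lay above control arrays in both media and by far more in N2B27. The interaction was 2.33 (SE 0.19, adjusted p = 0.000681). Peg10 had 1.55 (SE 0.17, adjusted p = 0.00363) and, like Nnat, passed without any single array.

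Ndn and its neighbour Magel2 on chromosome 7 had 0.84 and 0.94 (adjusted p = 0.0352 for each). Magel2 read -0.20 to 0.03 in the control arrays of both media and in the 2 mutant arrays in ESC medium, and 0.75 to 1.36 in mutant arrays in N2B27. Ndn was lost without any of 8 arrays (adjusted p up to 0.148) and Magel2 without any of 9 (up to 0.165), and Magel2, no member of the list, was chosen after its values were seen. The list had 2 calls without control ESC array 2, control N2B27 array 2 or 3 or mutant ESC array 2.

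The 4th imprinted call was Rian, a long noncoding RNA gene between Dlk1 and Dio3 on chromosome 12. Rian read 0.32, 0.13 and 0.05 in control arrays and -0.01 and 0.35 in mutant arrays of ESC medium. The N2B27 values were 0.49, 0.15 and 0.00 for control and 2.15, 1.44 and 1.79 for mutant arrays. Mutant cells in N2B27 stood apart from all other groups. The interaction was 1.57 (SE 0.28, adjusted p = 0.0202), and it did not pass without control ESC array 2, control N2B27 array 2 or 3 or mutant ESC array 2 (adjusted p up to 0.119). In this region the noncoding RNAs, including many miRNAs, are expressed from the maternal copy, and Dlk1, Rtl1 and Dio3 from the paternal copy. It was chosen for a closer description after its values were seen.

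Between Dlk1 and Dio3, 48 genes were measured, of which 16 were called positive (1.57% of all genes were) and none negative. A positive value was found for 47 of the 48, against 52% of all genes. The median genotype difference was 0.02 in ESC medium and 0.71 in N2B27, where 27 of the genes were called higher in mutant cells (4.1% of all genes were). Of the 40 miRNA genes, 12 were called, with interactions from 0.47 to 2.13 and adjusted p from 0.00193 to 0.0441. Mir377 read 0.14 to 0.44 in control and 0.16 and 0.46 in mutant arrays in ESC medium. Control arrays from N2B27 stood at -0.08, 0.09 and -0.32 and mutant arrays at 2.63, 1.91 and 1.52. Its interaction was 2.13 (SE 0.35, adjusted p = 0.0168).

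Mir127 read -0.11 to 0.27 in the 8 arrays of the other groups and 1.58, 1.44 and 1.45 in mutant arrays in N2B27. Its interaction was 1.34 (SE 0.14, adjusted p = 0.00193). Mir382 and Mir679 had 1.92 and 1.77. The 12 called genes give 23 mature miRNAs with 23 different seeds, so no seed is shared among them. The array reads the hairpin gene and tells neither arm from arm nor mature miRNA from precursor, and neighbouring genes here can share a precursor transcript, so their values are not independent.

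Meg3, the long noncoding RNA gene at the head of the maternal transcripts, had an interaction of 1.29 (SE 0.29, adjusted p = 0.0539) and was not called. It read 1.56 to 2.06 in mutant arrays in N2B27 and 0.00 to 0.90 in the other arrays. It passed without control N2B27 array 1 or mutant N2B27 array 2 (adjusted p = 0.0251 and 0.0419). Of the paternal genes, Rtl1 had 0.51 (adjusted p = 0.0627), Dio3 0.47 (adjusted p = 0.399) and Dlk1 -0.06 (adjusted p = 0.941), none called. The genotype difference in N2B27 was called for Rtl1 (0.59, adjusted p = 0.0032) and Dio3 (0.59, adjusted p = 0.0464). It was not called for Dlk1 (-0.12, adjusted p = 0.676). Higher values in mutant cells in N2B27 were thus not confined to the maternal transcripts. The region's count of 16 was 2 without mutant ESC array 2, 5 without control N2B27 array 3, 6 without control ESC array 2 or control N2B27 array 2 and 8 without control ESC array 3. Mir127 and Mir679 passed without any single array.

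**Figure D5:**
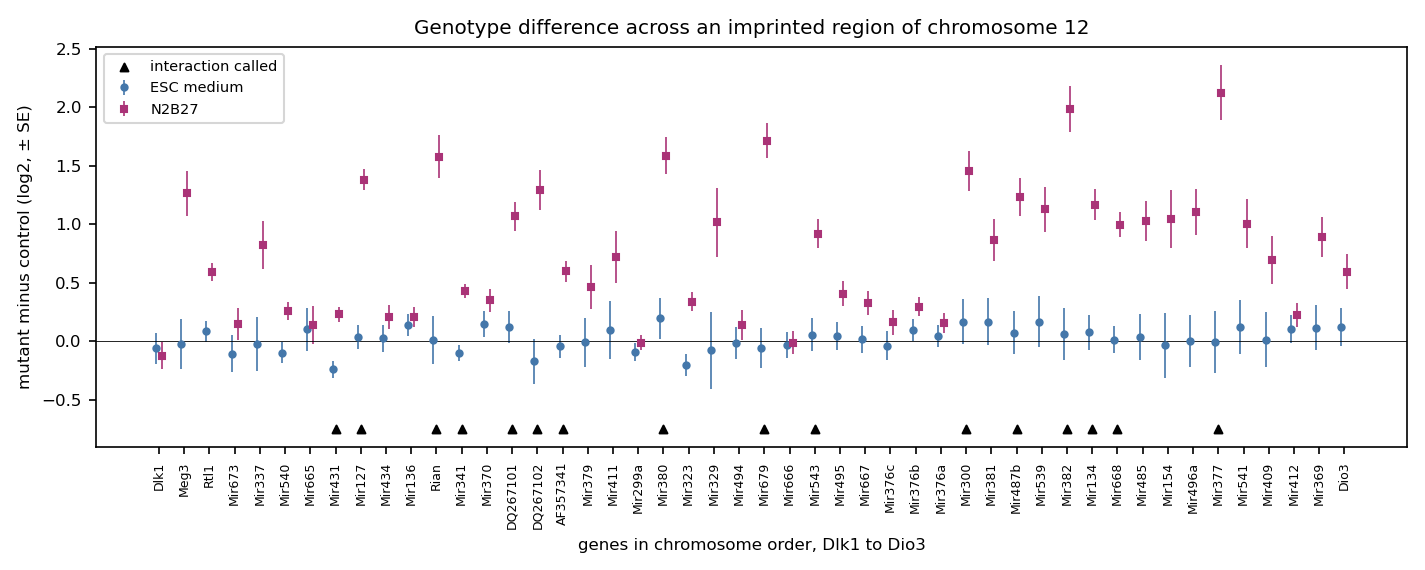
Mutant minus control difference (log2, ± SE) of the 48 genes measured from Dlk1 to Dio3, in chromosome order, in ESC medium (circles) and N2B27 (squares). Triangles mark the 16 genes with a called interaction. In ESC medium the points lie near 0, with a median of 0.02, and in N2B27 they rise to 2.12 at Mir377.

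Genes of the early embryo and germ line were among those with a negative interaction. Of 12 measured genes of the Pramel family and the 2-cell-like state, 3 were called negative (25.0%, against 0.552% of all genes) and none positive. Pramel6 read 0.12, 0.04 and 0.02 in control arrays and 3.90 and 3.38 in mutant arrays of ESC medium. In N2B27 the control arrays read 0.12, -0.06 and -0.05 and the mutant arrays -0.07, 0.00 and -0.11. The 2 mutant arrays in ESC medium stood far above the other 9. The interaction was -3.65 (SE 0.17, adjusted p = 1.25e-05). Pramel7, which lies on the same chromosome, had -3.28 (SE 0.20, adjusted p = 6.83e-05). Both belong to a family of similar sequences, and how far their probes are shared was not tested.

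Dnajc5g, encoding a DNAJ-type co-chaperone, had the lowest adjusted p of the genes named. It read 0.01 to 0.09 in control and 2.29 and 2.36 in mutant arrays in ESC medium, and -0.06 to 0.18 in all arrays in N2B27. Its interaction was -2.15 (SE 0.08, adjusted p = 3.77e-06). Calcoco2, a selective autophagy receptor gene, had -1.62 (SE 0.29, adjusted p = 0.0204). Adgrg6, an adhesion receptor gene, and Gstp3, of the glutathione transferases, had -1.45 and -1.43. Of 22 germline and meiosis genes, 9 were higher in mutant cells in ESC medium (3.09% of all genes were). In the interaction 2 of the 22 were called negative, where 0.552% of all genes were, and none positive. They were the synaptonemal complex gene Sycp1 (-1.09) and X-linked Magea4 (-2.03). Pramel6, Pramel7, Dnajc5g and Adgrg6 passed without any single array. Calcoco2, Gstp3, Sycp1 and Magea4 did not pass without mutant ESC array 2 (adjusted p = 0.104, 0.0507, 0.0597 and 0.0713), nor Calcoco2 without control array 2 or 3 of either medium.

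Not all negative interactions had this shape. Polg, the mitochondrial DNA polymerase gene, read 0.41, 0.53 and 0.63 in control arrays and -0.16 and -0.24 in mutant arrays of ESC medium. After N2B27 control arrays gave 1.96, 1.75 and 2.36 and mutant arrays 0.05, -0.20 and 0.00. The interaction was -1.35 (SE 0.20, adjusted p = 0.0127), and control cells in N2B27 stood apart and high. Rlbp1, a retinoid-binding protein gene near Polg on chromosome 7, had -1.50 (SE 0.31, adjusted p = 0.0372). It read 0.78 to 1.33 in control arrays in N2B27 and -0.60 to 0.24 elsewhere. Polg did not pass without mutant ESC array 2 (adjusted p = 0.074), and Rlbp1 without 7 of the 11 arrays (up to 0.157).

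The X chromosome held 38 of the 110 genes with a negative interaction. Of its 742 genes these are 5.12%, against 0.552% of all genes. A positive call was made for 8 X-linked genes (1.08%, against 1.57% of all genes). The median interaction of X-linked genes was -0.07, from 0.09 in ESC medium and 0.03 in N2B27. Medians per array were taken less the median of autosomal genes outside chromosome 8. For chromosome 8 genes this gave 0.048 and 0.047 in mutant arrays in ESC medium and 0.036 to 0.094 in N2B27. In control arrays it gave -0.056 to -0.025. Their median genotype difference was 0.114 in ESC medium and 0.166 in N2B27, and their median interaction 0.016. The part of this chromosome 8 difference in the calls was not tested. For X-linked genes the value was 0.046 and 0.062 in mutant arrays in ESC medium, 0.018 to 0.035 in mutant arrays in N2B27 and -0.012 to 0.00 in control arrays. Without mutant ESC array 2 the count was 5 and without mutant ESC array 3 it was 12. Without control ESC array 2 or control N2B27 array 2 it was 17, and without control ESC array 3 or control N2B27 array 3 it was 16.

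Xist, the noncoding RNA that coats the inactive X chromosome of female cells, had the largest positive interaction. It read -0.08 to 0.13 in the 6 control arrays, 1.05 and 0.87 in mutant arrays in ESC medium and 4.53, 3.60 and 4.14 in mutant arrays in N2B27. The interaction was 3.13 (SE 0.28, adjusted p = 0.000981), and the call was lost under a trended prior (adjusted p = 0.398). The lines also differ in a Y-linked gene, Eif2s3y, chosen after its values were seen. It stood at 0.37 to 0.72 in control and -3.73 to -3.54 in mutant arrays over both media, with an interaction of -0.02 (adjusted p = 0.984). The part of this sex chromosome difference in the X-linked values was not tested, and it cannot be told apart from the genotype. Of the X-linked genes with a negative interaction, Efhc2 had -2.39 (SE 0.33, adjusted p = 0.00916). It read 4.06 and 4.20 in mutant arrays in ESC medium, 1.24 to 2.25 in mutant arrays in N2B27 and -0.02 to 0.42 in control arrays. The adjacent phosphatase genes Mtm1 and Mtmr1, chosen after their values were seen, had -0.95 and -1.20. Efhc2 did not pass without mutant ESC array 2 (adjusted p = 0.0528) or with a trended prior (adjusted p = 0.445).

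Other large positive interactions fell outside the groups described above. Some belong to further lists with positive calls. Nt5e is among YAP-TEAD targets (3 of 18 called, 16.7%) and Plk2 in the p53 pathway (3 of 20, 15.0%). Tgfb2 is among mesenchymal genes (3 of 20, 15.0%), while 1.57% of all genes were called positive. Has2, a hyaluronan synthase gene, had 2.69 (SE 0.47, adjusted p = 0.0198), Nt5e, encoding the ectonucleotidase CD73, 2.36 (SE 0.34, adjusted p = 0.0107) and Psors1c2 2.26 (SE 0.31, adjusted p = 0.00843). Anxa3, an annexin gene, had 2.21, Plk2, a kinase gene activated by p53, 2.02, and the growth factor gene Tgfb2 1.61 (SE 0.18, adjusted p = 0.00363). Has2 read 0.59 to 1.21 in mutant arrays and -0.71 to 0.14 in control arrays in N2B27, and -1.26 and -1.02 against -0.22 to 0.88 in ESC medium. The genotypes did not overlap in either medium, in opposite order. Psors1c2 and Tgfb2 passed without any single array. Has2, Nt5e, Anxa3 and Plk2 did not pass without mutant ESC array 2 (adjusted p = 0.119, 0.0631, 0.103 and 0.0577). Anxa3 and Has2 were also lost without mutant ESC array 3, and Has2 without control ESC array 2 or 3.

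Several lists had no call, and with 2.12% of all genes called this is a common outcome for lists of their size. No gene passed among 24 of primitive streak and mesoderm, 22 immediate early genes, 30 of MYC and ribosome biogenesis, 19 of cholesterol synthesis, 29 of glycolysis and hypoxia, 30 of the nuclear respiratory chain and 25 Polycomb genes. The median interaction of these lists ran from -0.08 for glycolysis and hypoxia to 0.49 for cholesterol synthesis. Eomes, of the primitive streak, had 1.76 (adjusted p = 0.0672) and Myc 1.23 (adjusted p = 0.213), and both passed without mutant N2B27 array 3 (adjusted p = 0.0073 and 0.0194). In all, 18 of 46 lists had no called member.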

How the data were processed

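Total RNA was prepared with the Ambion WT expression kit and labelled with an Affymetrix WT terminal labelling kit, per the labels' protocols. The deposited values are on a log2 scale, and the submitters' processing notes name RMA and version 1.2 of the Affymetrix Expression Console. They are centred per transcript cluster on a baseline that is not stated, so no brightness, detection call or raw intensity was used here. Of 28815 clusters, 21780 had 1 gene symbol and were kept, 1605 had several and 5430 had none. Clusters of a gene were averaged, which gave 19935 genes, 998 of them with more than 1 cluster. Genes were matched to RefSeq GRCm38.p6 for chromosomes and sequences.

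limma 3.58.1 in R 4.3.3 fitted 4 group means to all arrays with 7 residual degrees of freedom (lmFit, eBayes, two-sided). Benjamini-Hochberg adjustment ran over all genes tested for each comparison, and an adjusted p under 0.05 was called. Every adjusted p in the text is from this fit or, where said, from the same fit without 1 array or under another setting. Tables were prepared in Python 3.11.15 with pandas 2.3.3. Alternatives changed the estimate and prior of the spread, the centring of arrays, the gene summary, the chromosomes tested, the use of array numbers, the thresholds and the arrays used, with each array left out in turn. The fit was tested on simulated data with known differences. The number of arrays, not a read depth, limits the precision.

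Named genes were the 12 largest positive and the 12 largest negative interactions called among genes with a symbol that could be named, up to 3 called members of each of 46 gene lists by size (or, for a list without a call, its single largest value), and 18 further genes. Other genes named here are list members given to complete a list's calls, genes of the chromosome 12 region or genes said to be chosen after their values were seen. The gene lists, members and rules were chosen with earlier results of these data known.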

Additional observations from a re-analysis of the deposited data

Results flagged for a closer look

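The interaction is itself a test of whether the genotype difference differs between media, and it was called for 422 genes. Each named gene that passed is given here with its interaction (log2). No group holds 4 or more arrays, so no single array was tested for standing apart from its group.

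Among the largest positive values were Xist 3.13, Has2 2.69, Epha1 2.6, Krt19 2.58, Krt8 2.43, Nt5e 2.36, Tagln 2.35, Nnat 2.33, Psors1c2 2.26, Sema6a 2.24, Neurod1 2.23, Anxa3 2.21, Dusp4 2.14, Nes 2.11 and Plk2 2.02. Between 1.5 and 2 were Sfn 1.92, Cldn6 1.87, Id2 1.79, Cald1 1.66, Dusp6 1.66, Phlda1 1.64, Cnn2 1.61, Tgfb2 1.61, Epha2 1.6, Rian 1.57, Gap43 1.56, Col1a1 1.55 and Peg10 1.55.

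Lower positive values were Bmp8b 1.32, Flt1 1.29, Perp 1.28, Edn1 1.25, Mmp14 1.19, Tap1 1.11, Pou3f1 1.08, Axin2 1.04 and Runx1 1.01, followed by Ifitm3 0.99, Lgals1 0.98, Axl 0.89, Cdkn2b 0.88, Fstl1 0.85, Map1b 0.77, E2f7 0.72, Slc1a3 0.72, Slc43a1 0.71, Gpx4 0.6, Elovl1 0.58 and Ccng1 0.57.

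Negative values were Pramel6 -3.65, Pramel7 -3.28, Efhc2 -2.39, Dnajc5g -2.15, Magea4 -2.03, Calcoco2 -1.62, Rlbp1 -1.5, Adgrg6 -1.45, Gstp3 -1.43, Ripply1 -1.41, Dynlt3 -1.39, Polg -1.35, Spic -1.17, Nr2f2 -1.14, Sycp1 -1.09, Hnf4a -1.06, Gata1 -0.71 and Fgfr3 -0.6.

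Of the 67 named calls, 52 were lost without mutant ESC array 2 and 30 without mutant ESC array 3. Without control ESC arrays 1, 2 and 3, 5, 26 and 25 were lost. Without control N2B27 arrays 1, 2 and 3, 14, 26 and 24 were lost, and without mutant N2B27 arrays 1, 2 and 3, 14, 3 and 10. A total of 14 held in every setting tried.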

How the results depend on the processing

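Of 6495 values of named genes recomputed, 5952 stayed on the same side of the threshold, 425 were weaker and 118 stronger. No value that passed in the main fit or in the alternative turned its sign. Some values that passed in neither did, such as the interactions of Fgf5 (-0.22 to 0.44) and Sox2 (-0.38 to 0.15). Array weights gave 1782 calls (1246 positive, 536 negative), 3138 and 2882 for genotype in ESC medium and N2B27, and 7689 for medium in the mutant. Without chromosomes 8, X and Y there were 66 negative calls, and 766 and 610 for genotype in the 2 media. At adjusted p under 0.01 and 0.1, 72 and 748 genes passed. Leaving out 1 array gave 59 to 633 calls (42 to 471 positive, 17 to 162 negative), 304 to 1707 and 454 to 1251 for genotype in ESC medium and N2B27, 3987 to 6044 and 2720 to 5956 for medium in control and mutant, and 34.0% to 52.5% for the share with mutant ESC medium apart. The causes were not tested. Of 15 same-number pairs, 12 correlated over 0.1 (r from -0.0141 to 0.43), and not every array correlated best with its own number. No label ties the numbers and not every pair passed 0.1, the rule for a pairing here, so none was assumed. With the number as a fixed block 657 genes passed (487 positive, 170 negative), and 559 as a random block. Among genes given as not called, Eomes (adjusted p = 0.0398), Esrrb (0.029) and Id3 (0.0415) passed with the fixed block, Eomes (0.049) with the random block, and Meg3 with both. At 0.3 log2 the genotype shapes of positive genes were 6 same, 91 opposite and 10 neither, and of negative genes 14 in N2B27 alone, 12 same, 7 opposite and 2 neither; medium shapes were 72 same, 62 opposite and 4 neither, and 25 same, 4 opposite and 4 neither. At 1.0 log2 genotype shapes were 48 ESC medium alone, 39 N2B27 alone, 0 same, 2 opposite and 223 neither, and 28 ESC medium alone, 1 same and 78 neither; medium shapes were 20 control alone, 8 same, 2 opposite and 162 neither, and 6 control alone, 32 mutant alone, 4 same and 68 neither. Centred values hold no brightness, so the filter on dim probes was not run. Each group's counts and the shape share under each setting were alternatives chosen after seeing the data.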
